A study of Mus musculus with 3 samples.

Results

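The 10 genes described here mark the epithelial or the mesenchymal state of a cell and were followed in mouse embryonic stem (ES) cells depleted of the nucleoporin NUP153. They were taken as a fixed list of gene symbols and comprise 3 epithelial genes (Cdh1, Epcam and Esrp1) and 7 mesenchymal genes (Cdh2, Vim, Snai1, Snai2, Twist1, Zeb1 and Zeb2), out of 24421 genes counted. RNA-Seq was performed on EL 16.7 cells, an undifferentiated female ES cell line of the F2 background 129S1/CastEiJx 129S1, which carried a scramble shRNA (control) or either of the NUP153-specific shRNAs (NUP153 KD-1 from shRNA-1, NUP153 KD-2 from shRNA-2). All cells were transduced with lentivirus, selected with 2 μg/ml puromycin for 2 days, and cultured with LIF on γ-irradiated embryonic fibroblasts of Tg(DR4)1Jae/J mice. The sequenced RNA can therefore hold transcripts of feeder fibroblasts beside those of ES cells, in a proportion that was not measured separately. Each condition has 1 library, so no difference between libraries has a replicate check. The intervals given below are 95% intervals that cover the counting of reads only. In a bulk culture, fewer cells of a type and less RNA per cell cannot be told apart.

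Epithelial cells adhere to their neighbours through E-cadherin (Cdh1) and EpCAM (Epcam), and ES cells share this adhesion in their compact colonies. During an epithelial to mesenchymal transition, as in the gastrulating embryo, transcription factors of the Snail (Snai1, Snai2), Twist and Zeb families repress epithelial genes. N-cadherin (Cdh2) and the intermediate filament vimentin (Vim) then become prominent. Fibroblasts express many of these mesenchymal genes constitutively.

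Snail and Zeb proteins bind the E-box motif CACCTG, which reads CAGGTG on the opposite strand. The promoters of Epcam, Snai1 and Vim are shown because they represent an adhesion gene of the epithelial set, a repressor that binds this motif, and the mesenchymal gene with the highest level. Each window runs from 250 bases before to 50 bases after the annotated start on the + strand (RefSeq, GRCm38.p6), in lower case with the motif on either strand in capitals. The Epcam window lies at chr17:87635729-87636028, the Snai1 window at chr2:167537945-167538244 and the Vim window at chr2:13574061-13574360.
Epcam: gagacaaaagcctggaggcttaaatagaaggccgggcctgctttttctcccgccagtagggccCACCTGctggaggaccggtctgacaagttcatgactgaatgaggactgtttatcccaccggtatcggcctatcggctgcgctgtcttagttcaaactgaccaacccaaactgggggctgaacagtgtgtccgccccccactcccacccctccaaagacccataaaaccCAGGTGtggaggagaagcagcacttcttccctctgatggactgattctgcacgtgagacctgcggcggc
Snai1: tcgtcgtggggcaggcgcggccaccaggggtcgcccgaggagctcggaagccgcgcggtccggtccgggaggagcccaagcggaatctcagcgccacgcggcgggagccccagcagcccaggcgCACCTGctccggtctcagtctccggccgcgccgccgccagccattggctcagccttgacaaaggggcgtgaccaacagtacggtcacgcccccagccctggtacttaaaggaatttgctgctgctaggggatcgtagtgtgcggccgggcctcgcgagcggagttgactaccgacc
Vim: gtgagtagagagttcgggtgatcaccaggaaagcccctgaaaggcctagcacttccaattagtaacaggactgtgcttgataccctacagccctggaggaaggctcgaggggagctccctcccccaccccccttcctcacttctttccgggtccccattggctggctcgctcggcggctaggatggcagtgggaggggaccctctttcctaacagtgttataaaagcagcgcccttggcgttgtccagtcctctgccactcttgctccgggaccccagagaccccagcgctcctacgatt
The Epcam promoter holds the motif 2 times, with first bases at -187 and -19 from the start. The Snai1 promoter holds it 1 time, at -126 from the start, and the Vim promoter does not hold these letters. Of the 10 genes, 5 matched the RefSeq promoter table. The windows of Twist1 and Zeb2 do not hold the motif, and 20.2% of all 32851 promoter windows do. A match describes these letters only, and no binding was measured in these libraries.

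Reads on genes numbered 72344726 in control against 85258834 in KD-1 and 69839336 reads in KD-2. Nup153, the knockdown target, had 27870 reads in control against 16451 in KD-1 and 11126 reads in KD-2, which gives log2 fold changes of -0.99 and -1.43. All 14 ES cell markers examined (among them Pou5f1, Nanog and Sox2) had reads in every library, as did all 16 fibroblast markers. The summed level of the ES cell markers was 5215 RPM in control (RPM, reads scaled to the reads on all genes of the library), 5665 in KD-1 and 4311 RPM in KD-2. For the fibroblast markers it was 1919 in control against 1183 in KD-1 and 3902 RPM in KD-2. The fibroblast transcripts were thus lowest in KD-1 and highest in KD-2, while the ES cell transcripts had the reverse order.

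To order the 10 genes by level, reads were scaled by exon length and by the reads on all genes (RPKM). In control cells Vim had the highest level, at 212 RPKM, followed by Cdh1 at 51.2 RPKM and Epcam at 22.6 RPKM. The remaining genes were below 5 RPKM, from Twist1 at 4.90, Zeb1 at 3.53, Cdh2 at 2.67, Snai2 at 1.77 and Zeb2 at 1.06 down to Esrp1 at 0.410 and Snai1 at 0.299 RPKM. Esrp1 and Snai1 did not differ beyond counting error in this library. In KD-1 the first 3 places were kept, and Zeb1 (3.80 RPKM) and Twist1 (3.70 RPKM) did not differ beyond counting error. In KD-2 Vim reached 463 RPKM and Twist1 12.5 RPKM, while Cdh1 was at 34.9 RPKM and Epcam at 18.5 RPKM. Esrp1 was the lowest of the 10 genes in KD-2, at 0.159 RPKM.

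**Figure D1:**
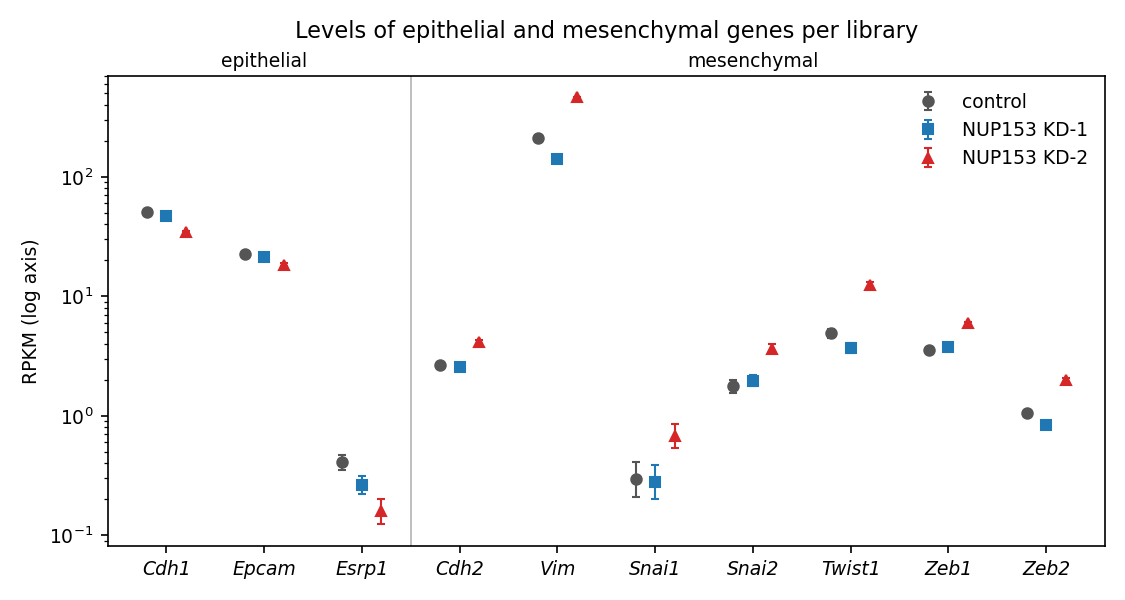
Level of each gene in RPKM, on a log axis, in the control, NUP153 KD-1 and NUP153 KD-2 libraries (1 library each), with bars for the 95% Poisson interval of the read count. Vim is highest in every library, and the KD-2 points lie lowest for the 3 epithelial genes and highest for the 7 mesenchymal genes.

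The first question was whether epithelial and mesenchymal genes differed upon NUP153 depletion. In KD-2 all 3 epithelial genes were lower and all 7 mesenchymal genes were higher than in control, and 8 of the 10 genes passed a fold change of 1.5. In KD-1 only Esrp1 passed it, and 2 of the 7 mesenchymal genes were higher. Fold changes were taken from reads scaled by the upper quartile of each library, with a pseudocount of 0.5 reads, over the 16670 genes averaging 10 reads or more, which include all 10 genes. With 1 library per condition no test was made for these folds. In KD-2, 6 of the 10 genes were more than 1.5-fold higher and 2 were more than 1.5-fold lower, where 17.1% of all genes were higher and 10.2% were lower by as much. In KD-1, 0 of the 10 were higher and 1 was lower past that fold, where 8.63% of all genes were higher and 5.62% were lower. The median log2 fold change of the 7 mesenchymal genes was 0.89 in KD-2 and -0.07 in KD-1, and that of the 3 epithelial genes was -0.71 in KD-2 and -0.11 in KD-1. The median of all genes was -0.02 in KD-2 and 0.02 in KD-1. Both comparisons share the control library, and fibroblast marker transcripts differed in the same direction as most mesenchymal genes, as given further on. The split of all genes past the fold depended on scaling: 2847 of 4547 were higher in KD-2, and 3942 of 4762 after scaling by library totals. In KD-1, 1438 of 2375 were higher, and 1216 of 2362 with DESeq2's size factors.

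**Figure D2:**
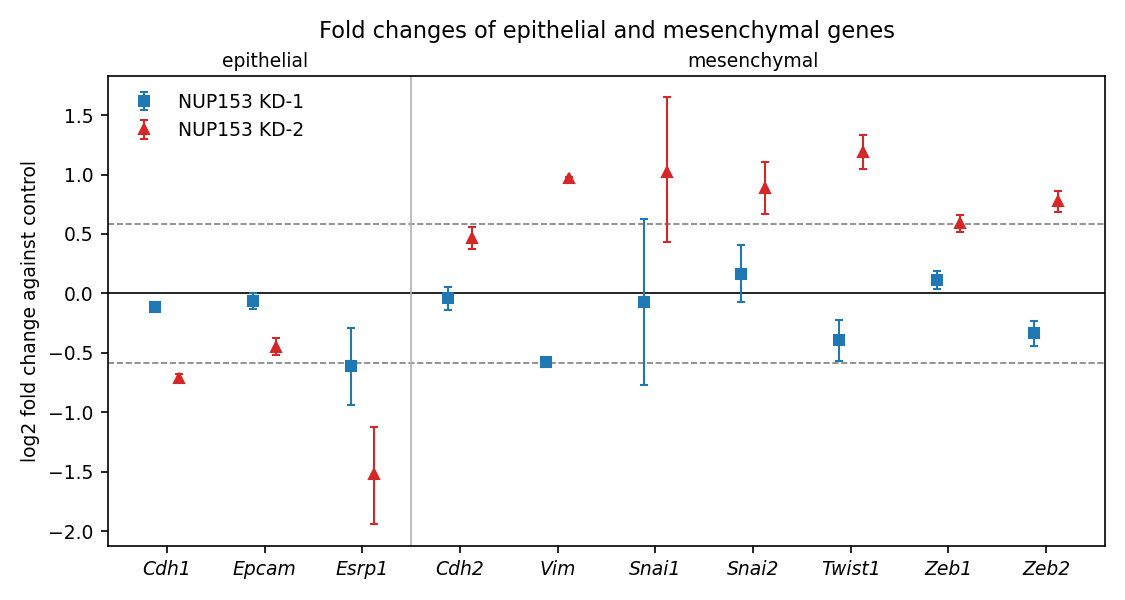
Log2 fold change against control of each gene in the NUP153 KD-1 and NUP153 KD-2 libraries, with bars for the exact 95% interval of the read ratio and dashed lines at a fold change of 1.5 (0.585 on the log2 scale). In KD-2 the epithelial genes lie below 0 and the mesenchymal genes above it, while in KD-1 most lie near 0, with Esrp1 and Vim lowest.

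Among the epithelial genes, Cdh1 (chromosome 8 from 106603351 to 106670246 in GRCm38) was covered by 16935 reads in control against 18356 in KD-1 and 11151 reads in KD-2. After scaling this was 18300, 16930 and 11190 reads, so that KD-2 stood apart and KD-1 lay close to control. The resulting log2 value was -0.11 in KD-1 (interval -0.14 to -0.08) and -0.71 in KD-2 (interval -0.74 to -0.68). Scaling by library totals moved the KD-2 value to -0.55, below a fold change of 1.5. Epcam (chromosome 17 from 87635979 to 87651129), whose promoter carries both motif copies shown above, had 3591 reads in control against 4027 in KD-1 and 2832 reads in KD-2. On the log2 scale its fold change was -0.06 in KD-1 (interval -0.13 to 0.00) and -0.45 in KD-2 (interval -0.52 to -0.38). Epcam was thus lower in KD-2 by more than counting error, but did not pass a fold change of 1.5.

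Esrp1 (chromosome 4 from 11331933 to 11386783) encodes a splicing regulator of epithelial cells that directs epithelial isoforms of several transcripts. It had 187 reads in control against 143 in KD-1 and 70 reads in KD-2. The KD-2 library had the fewest reads and control the most. The resulting log2 value was -0.61 in KD-1 (interval -0.94 to -0.29) and -1.52 in KD-2 (interval -1.94 to -1.12), the lowest value of the 10 genes in both libraries. In KD-2 only 0.366% of all genes had a lower value, and in KD-1 5.17% had one. The counts of Esrp1 are small, and its interval in KD-1 reaches below a fold of 1.5.

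Of the mesenchymal structural genes, Vim (chromosome 2 from 13573927 to 13582826) had 72731 reads in control against 57280 in KD-1 and 153267 reads in KD-2. KD-1 was below control and KD-2 was above it. The resulting log2 value was -0.57 in KD-1 (interval -0.59 to -0.56) and 0.97 in KD-2 (interval 0.96 to 0.98). The KD-1 value passed a fold change of 1.5 with TMM scaling (-0.59) and with DESeq2's size factors (-0.64). Cdh2 (chromosome 18 from 16588877 to 16809246) had 1557 reads in control against 1771 in KD-1 and 2319 reads in KD-2. Relative to control it was at -0.04 in KD-1 (interval -0.14 to 0.06) and 0.47 in KD-2 (interval 0.37 to 0.56) on the log2 scale. Only KD-2 differed beyond counting error, and the fold change passed 1.5 there only after scaling by library totals (0.63).

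Of the transcription factors, Twist1 (chromosome 12 from 33957671 to 33959829), a basic helix-loop-helix factor of mesoderm and mesenchyme, had the largest fold change in KD-2. It had 577 reads in control against 514 in KD-1 and 1416 reads in KD-2, which gives log2 fold changes of -0.40 (interval -0.57 to -0.22) and 1.19 (interval 1.05 to 1.33). KD-1 was below and KD-2 above control, as for Vim. The zinc finger repressor Snai1 (chromosome 2 from 167538195 to 167542814) had the fewest reads of the 7 mesenchymal genes, with 35 reads in control against 39 in KD-1 and 77 reads in KD-2. On the log2 scale its fold change was -0.07 in KD-1 (interval -0.77 to 0.63) and 1.02 in KD-2 (interval 0.44 to 1.65). Its relative Snai2 (chromosome 16 from 14705852 to 14709385) had 258 reads in control against 339 in KD-1 and 514 reads in KD-2. For Snai2 the log2 fold change was 0.17 in KD-1 (interval -0.07 to 0.40) and 0.89 in KD-2 (interval 0.67 to 1.11). Neither Snail gene differed from control beyond counting error in KD-1, and both were higher in KD-2.

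The Zeb genes encode related zinc finger repressors of Cdh1. Zeb1 (chromosome 18 from 5591860 to 5775467) had 2625 reads in control against 3327 in KD-1 and 4256 reads in KD-2. On the log2 scale its fold change was 0.11 in KD-1 (interval 0.04 to 0.19) and 0.59 in KD-2 (interval 0.52 to 0.66), so that its KD-2 value lay at the fold threshold itself. Zeb2 (chromosome 2 from 44983632 to 45117395) had 1522 reads in control against 1414 in KD-1 and 2804 reads in KD-2. On the log2 scale its fold change was -0.33 in KD-1 (interval -0.44 to -0.23) and 0.77 in KD-2 (interval 0.68 to 0.87). The Zeb genes thus lay on opposite sides of control in KD-1 and on the same side in KD-2. In the annotation 1.93% of the exon length of Zeb1 and 3.27% of that of Zeb2 lie over another counted gene of the opposite strand, and which strand was counted is not given in the sources used here.

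To compare adhesion and mesenchymal transcripts without any library scaling, ratios of reads were formed within each library. Per read of Vim there were 0.233 reads of Cdh1 in control against 0.320 in KD-1 and 0.0728 reads in KD-2. This ratio was 1.38-fold higher in KD-1 than in control (log2 0.46, interval 0.43 to 0.49) and 3.20-fold lower in KD-2 (log2 -1.68, interval -1.72 to -1.64). The ratio of the cadherins differed from control beyond counting error in KD-2 and not in KD-1. Per read of Cdh2 there were 10.9 reads of Cdh1 in control against 10.4 in KD-1 and 4.81 reads in KD-2. The change of this ratio was -0.07 in KD-1 (interval -0.17 to 0.03) and -1.18 in KD-2 (interval -1.28 to -1.08) on the log2 scale.

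Compared directly, the libraries of the NUP153 shRNAs differed in 7 of the 10 genes by more than 1.5-fold. Cdh1 and Esrp1 were higher in KD-1 than in KD-2, where 13.9% of all genes were higher by as much. Vim, Snai1, Snai2, Twist1 and Zeb2 were lower, where 16.1% of all genes were lower. The log2 fold change of KD-1 against KD-2 was -1.54 for Vim (interval -1.56 to -1.53), -1.58 for Twist1 (interval -1.73 to -1.44) and -1.11 for Zeb2 (interval -1.20 to -1.02). Cdh1 was at 0.60 (interval 0.56 to 0.63) and was below the fold of 1.5 with TMM scaling (0.54), DESeq2's size factors (0.49) and library totals (0.43). Cdh2 passed it with DESeq2's size factors (-0.61) and library totals (-0.68), and Zeb1 with library totals (-0.64), so that 6 to 8 genes passed under these scalings. The knockdown libraries thus differed from each other in Vim, Twist1 and Zeb2 by more than either differed from control. Of all genes past the fold, 2322 of 5013 were higher in KD-1, and 1229 of 4754 after scaling by library totals.

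Both knockdown libraries were then compared as a group to control by the quasi-likelihood test of edgeR, in which 1 residual degree of freedom is left and the spread comes from KD-1 and KD-2 alone. The test called 2 of 21164 genes (0.00945%) at an adjusted p under 0.05, namely Lars2 and Mir6236, chosen for naming once their values were known, and 0 of the 10 genes. At an unadjusted p under 0.05 there were 264 genes, and again 0 of the 10. Esrp1 had the lowest p of the 10 genes in edgeR's fit, 0.0705 (log2 fold change -0.997, adjusted p of 1). For the other 9 genes the unadjusted p in edgeR's fit lay between 0.221 for Twist1 (log2 fold change 0.60) and 0.599 for Cdh2 (log2 fold change 0.23). The Wald test of DESeq2 called 2 of the 21164 genes it was given, Ipw and Taf7l, likewise named once their values were known. Neither of them was called in edgeR's fit above. This Wald test also called 0 of the 10, with a p of 0.124 for Esrp1. At an unadjusted p under 0.05 it had 82 genes and 0 of the 10. The 3 epithelial genes, and of the mesenchymal genes Snai2 and Zeb1, were on the same side of control in both libraries, and the other 5 were not. In KD-1, however, Epcam, Snai2, Cdh2 and Snai1 were within counting error of control. Only Vim, Twist1 and Zeb2 lay on opposite sides of control by more than counting error in each library.

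Among 38 other epithelial genes (tight junction, desmosome, keratin and polarity genes and their regulators), 31 were lower and 7 higher than in control in KD-2 (median log2 value -0.36). Of these, 10 were lower and 2 were higher by more than 1.5-fold, where the shares of all genes were 10.2% lower and 17.1% higher. In KD-1 they split evenly, with 19 higher and 19 lower and a median of 0.00, and 1 was higher and 5 were lower past that fold (8.63% and 5.62% of all genes). Ap1m2, which encodes a sorting adaptor subunit of epithelial cells, was lowest among genes averaging 100 reads or more, at -0.79 in KD-1 and at -1.18 in KD-2. Dsg2, a desmosomal cadherin, was at 0.07 in KD-1 and at -1.02 in KD-2, and Marveld2, a tight junction protein, was at -0.27 and -0.88. P-cadherin (Cdh3) was at 0.57 in KD-1 and at -0.49 in KD-2. Llgl2, a polarity gene, was the highest in both libraries, with 1486 reads in control against 3062 in KD-1 and 3061 reads in KD-2 and log2 fold changes of 0.81 and 0.94. The lower values in KD-2 thus did not cover every epithelial gene. In KD-2 Jup (plakoglobin) was at 0.43, Tjp3 at 0.32, Krt19 at 0.27 and St14 at 0.09, with Pkp2 at -0.58 and Lsr at -0.57 at the low end. Tjp3, Krt19 and St14 were within counting error of control there, whereas Jup and Llgl2 were not. In KD-1 the high end also held Tjp3 (0.31), Krt8 (0.29) and F11r (0.24), and the low end Lsr (-0.37), Pkp3 (-0.27) and Krt19 (-0.26). Of the genes named here, Tjp3, Pkp3, Krt19, Marveld2 and Dsg2 were within counting error of control in KD-1.

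Among 30 other genes of the mesenchymal state and of TGF-β signalling, 25 were higher and 5 lower in KD-2 (median log2 value 0.54), and 13 were higher and 0 lower past a fold of 1.5 (17.1% and 10.2% of all genes). In KD-1, 7 were higher and 23 lower, with a median of -0.16, and 0 were higher and 8 lower past that fold (8.63% and 5.62% of all genes). The highest in KD-2 averaging 100 reads or more were Twist2 (1.30), Foxc2 (1.22), Foxc1 (1.07), Lox (0.99) and Tgfb3 (0.99). The lowest in KD-1 were Acta2 (-1.52), which encodes smooth muscle actin, the TGF-β receptor gene Tgfbr2 (-1.40), the collagen crosslinker Lox (-1.11), Cd44 (-0.89) and Axl (-0.87). In KD-2 these 5 genes were at 0.81 for Acta2, 0.70 for Tgfbr2, 0.99 for Lox, 0.63 for Cd44 and 0.84 for Axl, each above control. The highest in KD-1 were Tgfbr1 (0.33), Itgb3 (0.20), Id2 (0.15), Zfp281 (0.08) and Tcf3 (0.07). The lowest in KD-2 were Itgb3 (-0.39), Zfp281 (-0.25), Tgfbr1 (-0.20), Smad2 (-0.09) and Smad4 (-0.01). Tcf3 in KD-1 and Smad4 in KD-2 were within counting error of control. The genes of the miR-200 family and Mir205, whose miRNAs repress the Zeb genes, had 2 reads in all in control against 4 in KD-1 and 2 reads in KD-2 over 6 genes, and total RNA libraries of this kind do not measure mature miRNAs.

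Fibroblast markers, whose cells of origin were not measured, differed in the same direction as most of the 10 genes' mesenchymal members. Of the 16 fibroblast markers (collagens, Dcn, Lum, Postn, Thy1, Pdgfrb and others), 14 were lower in KD-1 (median log2 value -0.67) and 16 were higher in KD-2 (median log2 value 0.78). Of the 14 ES cell markers, 11 were higher in KD-1 (median 0.15) and 10 were lower in KD-2 (median -0.30). Few reads came from markers of other lineages. The 6 primitive streak markers, a lineage in which Snai1 is active in the embryo, summed to 5.65 RPM in control against 7.69 in KD-1 and 8.89 RPM in KD-2. The 7 primitive endoderm markers summed to 96.3 RPM in control against 82.4 in KD-1 and 171 RPM in KD-2, and Pdgfra, which is also on the fibroblast list, gave most of them. The 5 neural markers summed to 77.2, 97.7 and 66.1 RPM in the same order, and the 5 endothelial and blood markers to 62.7, 71.6 and 53.4. Among markers averaging 10 reads or more, 3 of 5 for the primitive streak, 3 of 6 for the primitive endoderm, 1 of 3 neural and 1 of 3 endothelial and blood markers were past 1.5-fold higher in KD-2 (17.1% of all genes). In KD-1 this held for 1 marker of each list (8.63% of all genes), and 0 were past that fold lower in either library. Some of these markers had few reads and were within counting error of control. They were T (33 reads in control against 55 in KD-2), Sox1 (8 against 16 in KD-2) and Sox17 (15 against 31 in KD-1). Pdgfra was among the primitive endoderm markers past the fold in KD-2. The part of feeder fibroblasts in the differences of the 10 genes was not tested, but reads can be set against the marker lists within the same library.

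Per 1000 reads of the fibroblast markers there were 524 reads of Vim in control against 568 in KD-1 and 563 reads in KD-2. On this scale Vim in KD-2 differed from control by 0.10 (interval 0.09 to 0.12, log2), where it differed by 0.97 against the library as a whole. Snai2 had 1.86, 3.36 and 1.89 reads in control, KD-1 and KD-2, with a log2 change of 0.02 in KD-2 (interval -0.20 to 0.24). Zeb2 had 10.96, 14.0 and 10.3 reads, with a log2 change of -0.09 in KD-2 (interval -0.18 to -0.00038). The KD-2 values of Snai2 and Zeb2 thus lay at or near those of control relative to the fibroblast markers, whereas in KD-1 Snai2 was higher by 0.85 (interval 0.62 to 1.09) and Zeb2 by 0.35 (interval 0.25 to 0.46). Twist1 was higher than control in both knockdowns on this scale, at 4.16, 5.10 and 5.20 reads, with log2 changes of 0.29 in KD-1 (interval 0.12 to 0.47) and 0.32 in KD-2 (interval 0.18 to 0.46). Snai1 was at 0.252, 0.387 and 0.283 reads, and neither of its changes exceeded counting error. Zeb1 and Cdh2, like Zeb2, were above control in KD-1 and below it in KD-2 on this scale, with Zeb2 in KD-2 at the edge of counting error. Zeb1 had 18.9, 33.0 and 15.6 reads per 1000 fibroblast marker reads, with log2 changes of 0.80 in KD-1 (interval 0.73 to 0.88) and -0.28 in KD-2 (interval -0.35 to -0.21). Cdh2 had 11.2, 17.6 and 8.51 reads, with log2 changes of 0.65 in KD-1 (interval 0.55 to 0.75) and -0.40 in KD-2 (interval -0.49 to -0.30). Against the median log2 fold change of the fibroblast markers, the KD-2 values were 0.19 for Vim, 0.11 for Snai2, -0.0019 for Zeb2, 0.41 for Twist1, 0.24 for Snai1, -0.19 for Zeb1 and -0.31 for Cdh2. The fibroblast markers themselves ranged from -2.01 to 0.08 in KD-1 and from 0.37 to 1.58 in KD-2 (log2 fold change against control). All 7 mesenchymal genes lay inside this range in KD-2, and in KD-1 all but Snai2 (0.17) and Zeb1 (0.11), which were above it. Per ES cell marker read, in contrast, all 7 were higher than control in KD-2, among them Vim by 1.40, Twist1 by 1.62, Snai2 by 1.32 and Zeb2 by 1.21 on the log2 scale. In KD-1 on that scale Vim was at -0.70, Twist1 at -0.52, Zeb2 at -0.46 and Cdh2 at -0.17. Snai1 (-0.20), Snai2 (0.04) and Zeb1 (-0.01) were within counting error of control there. Per fibroblast marker read Cdh1 (0.58) and Epcam (0.63) were also higher than control in KD-1, and Esrp1 (0.07) was within counting error. The KD-1 values of the mesenchymal genes thus depended on the marker list they were set against.

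The epithelial genes were set against the ES cell markers in the same way. Per 1000 ES cell marker reads Epcam had 9.52 reads in control against 8.34 in KD-1 and 9.41 reads in KD-2. Its KD-2 value was within counting error of control (log2 change -0.02, interval -0.09 to 0.05), whereas it was at -0.15 when set against the median log2 fold change of the ES cell markers in place of their summed reads. Cdh1 had 44.9, 38.0 and 37.0 reads, with log2 changes of -0.24 in KD-1 (interval -0.27 to -0.21) and -0.28 in KD-2 (interval -0.31 to -0.24). Against the median ES cell marker Cdh1 was at -0.27 in KD-1 and at -0.41 in KD-2, so that the distance between the knockdowns depended on how the markers were combined. Esrp1 had 0.496, 0.296 and 0.233 reads, with log2 changes of -0.74 in KD-1 (interval -1.07 to -0.42) and -1.09 in KD-2 (interval -1.51 to -0.69). Of these 3 genes, Esrp1 was lower than control by more than 1.5-fold in both knockdowns on this scale, and it was at -0.77 and -1.22 against the median marker. The ES cell markers themselves ranged from -0.24 to 0.69 in KD-1 and from -0.70 to 1.17 in KD-2. Esrp1 was below this range in both libraries, Cdh1 was just below it in KD-2 (-0.71) and inside it in KD-1, and Epcam was inside it in both.

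**Figure D3:**
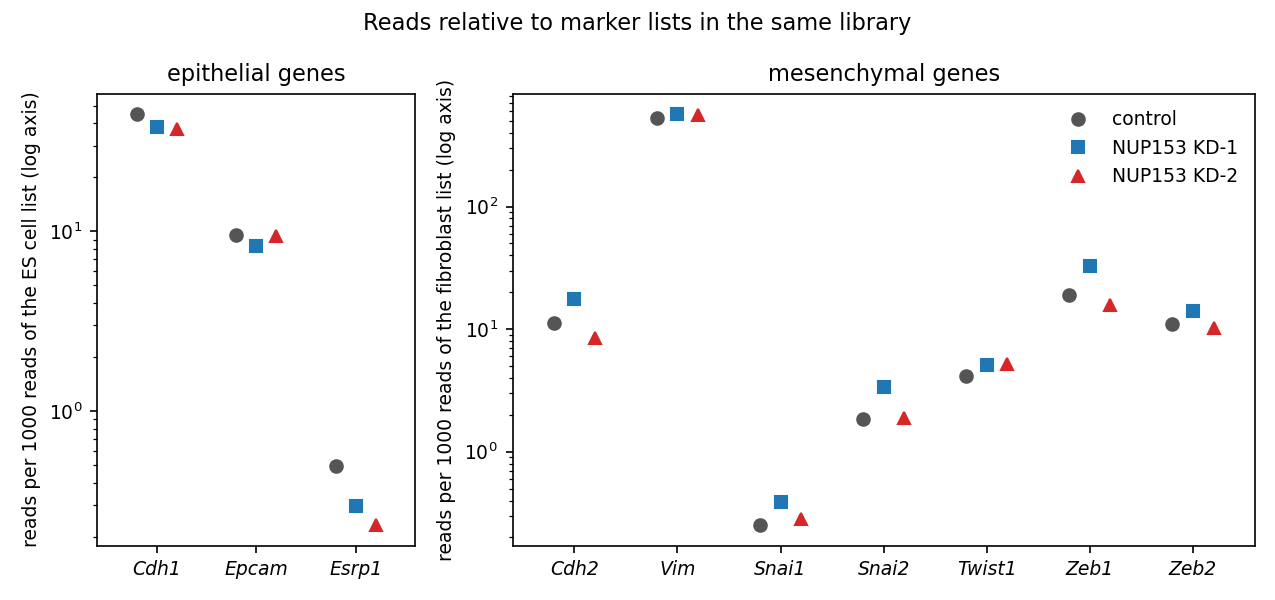
Reads of each epithelial gene per 1000 reads of the ES cell markers (left) and of each mesenchymal gene per 1000 reads of the fibroblast markers (right) in the control, NUP153 KD-1 and NUP153 KD-2 libraries, on log axes. Vim lies between 524 and 568 in the 3 libraries, every mesenchymal gene but Twist1 is highest in KD-1, and Esrp1 is lowest in KD-2.

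For Cdh1 and Vim, the genes with the most similar pattern were sought among the other 7880 genes averaging 1000 reads or more, by the Euclidean distance between their log2 fold changes in KD-1 and KD-2. The nearest to Cdh1 were Lbr, U2surp, Ppih, Gdap10 and Uxt, at distances between 0.00308 and 0.0134. Lbr, which encodes the lamin B receptor of the inner nuclear membrane, was at -0.11 in KD-1 and at -0.71 in KD-2. The nearest to Vim were Cmtm3, Tbx15, Rnf150, Tspan9 and Tnfrsf12a, at distances between 0.0289 and 0.0868. Tbx15, a mesenchymal T-box factor, was at -0.51 in KD-1 and at 1.00 in KD-2. Likeness here rests on 2 fold changes that share the control library.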

How the data were processed

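RNA-Seq libraries were analysed for control, NUP153 KD-1 and NUP153 KD-2 mouse ES cells, 1 library each. Per the labels and the methods, the authors depleted total RNA of ribosomal RNA, trimmed reads with Trim Galore 0.4.1, mapped them with TopHat2 2.1.1 to mm10 (GRCm38), and deposited raw read counts per gene symbol, without normalization. The processing notes list HTSeq and the methods name featureCounts. Reads outside of genes (21.5 to 24.1%) and ambiguous reads (1.45 to 1.65%) were left out. The spike-in sequences that set the dispersion in the study are not used here, so that no test was made between single libraries.

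Libraries were scaled by the upper quartile, and log2 fold changes were computed with a pseudocount of 0.5 scaled reads. Genes averaging 10 reads or more with a fold change above 1.5 were counted as past the fold. Intervals are exact (Clopper-Pearson for read ratios, Poisson for RPKM) at 95%, except for the within-library ratios of 2 genes, which have normal intervals on the log scale. Both knockdown libraries were compared to control with edgeR 4.0.16 (R 4.3.3) and, as an alternative, DESeq2 1.42.0, with Benjamini-Hochberg adjustment over all genes. The spread in this comparison is that between KD-1 and KD-2, which differ in shRNA, so that it is not a spread between replicates of 1 condition. On simulated counts with 200 genes changed 4-fold, this edgeR comparison called 186 of them with 10 false calls at an assumed dispersion of 0.04, which need not be that of these libraries. Coordinates and exon lengths are from GENCODE M21 (GRCm38). Other alternatives were TMM, DESeq2's size factors, library totals, a fold above 2, a pseudocount of 5, minimum means of 1 read in any library and of 100 reads, and leaving out a knockdown library.

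The 10 genes and the gene lists were chosen with earlier results of these data known. All 10 genes are named, with list genes named as the 5 highest and 5 lowest per knockdown averaging 100 reads or more, together with the 5 genes nearest to Cdh1 and Vim. Reads per 1000 marker reads were added after the values were seen. Python 3.11.15, pandas 2.3.3, scipy 1.17.1 and matplotlib 3.10.9 were used.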

Additional observations from a re-analysis of the deposited data

Results flagged for a closer look

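Vim, Twist1 and Zeb2 stood out because their KD-1 and KD-2 libraries lay on opposite sides of control, each by more than counting error. The log2 fold change of KD-1 against KD-2 was -1.54 for Vim, -1.58 for Twist1 and -1.11 for Zeb2. Whether the effects of the shRNAs differ was not tested, since each has 1 library. Fibroblast markers differed in the same direction, with a median log2 fold change of KD-1 against KD-2 of -1.62.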

How the results depend on the processing

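With 1 library per condition, counting error is known and the spread between cultures is not. All 120 member log2 fold changes recomputed under another scaling or pseudocount kept their sign, and they moved by at most 0.166. In KD-1, 1 gene (Esrp1) passed a fold of 1.5, 2 genes (Esrp1 and Vim) did with TMM scaling and with DESeq2's size factors, and 0 genes passed a fold of 2 (770 of all 16670 genes did). In KD-2, 8 genes passed a fold of 1.5 and 3 (Esrp1, Snai1 and Twist1) a fold of 2, as did 1212 of all 16670 genes. After library totals, which moved the median of all genes in KD-2 by 0.16, 8 genes passed as well, but Cdh1 (-0.55) was replaced by Cdh2 (0.63). Between KD-1 and KD-2, 7 genes passed a fold of 1.5 and 4 (Vim, Snai1, Twist1 and Zeb2) a fold of 2, as did 1839 of all 16670 genes. The quasi-likelihood test on both knockdown libraries called 2 genes, 4 with TMM scaling and 4 with a minimum mean of 10 reads, and 0 of the 10 genes described here in each of these fits. Without either knockdown library no residual degree of freedom is left, so that only the fold changes of single libraries remain. Leaving out KD-2 placed Cdh2, Vim, Snai1, Twist1 and Zeb2 below control, Cdh2 and Snai1 only within counting error, whereas the fit of both libraries placed all of these above it. No paired analysis was possible because each condition has 1 library.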
